A study of Homo sapiens with 6 samples.

Results

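The genes of the proteasome were compared between CAL-27 cells grown attached to the dish (parental) and CAL-27 sphere cells. Members were all genes whose symbol starts with PSMA to PSMF and a number, except PSMB8 and PSMB9, which are not described here, and 42 of the 17110 genes listed met this rule. They comprised 15 core genes (PSMA and PSMB) and 27 cap genes (PSMC, PSMD, PSME and PSMF), and 40 of the 42 encode a subunit, an assembly chaperone, an activator or an inhibitor of the proteasome. The other 2 symbols, PSMC3IP and PSME3IP1, matched by their first letters but are not proteasome subunits. PSMC3IP is a homologous recombination factor and PSME3IP1 a partner protein of the activator PSME3.

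CAL-27 is an established human tongue cancer line of squamous type. The 6 RNA-seq libraries were 3 parental and 3 sphere libraries, the latter from suspension culture, which the study used to enrich cancer stem cells. No drug, gene edit or time course is named in the labels, and both groups are a single cell line. Whether the 3 libraries of a group came from separate cultures is not stated in the labels. The limma p-values here rest on the spread between these libraries, partly averaged over genes, and that spread may be technical.

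The proteasome is the protease complex that degrades most ubiquitin-tagged proteins of the cytosol and nucleus. Its core particle is a barrel of stacked rings, with alpha subunits (PSMA) forming the gated outer rings and beta subunits (PSMB) the inner rings, which hold the proteolytic sites. The regulatory particle caps the barrel with a base of ATPases (PSMC) and scaffold subunits that unfold substrates. Its lid (most PSMD genes) removes ubiquitin. Activators (PSME) can bind the same end of the barrel. Its inhibitors are used as cancer drugs, mainly against myeloma.

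Values were TPM, in which read numbers are divided by transcript length and every library is brought to the same total, so levels of different genes can be compared. This unit hides the read depth, which is unknown, and precision rests on the spread over 3 libraries. Between 15045 and 15448 genes were above 0 in each library. Summed TPM of 6 epithelial markers was 3863 to 3964 in parental and 8080 to 8126 in sphere libraries. That rise was carried by KRT5, a basal keratin (722 ± 30.5 to 5996 ± 49.0 TPM, SD, n = 3 each), and without KRT5 the sum was 3170 to 3211 in parental and 2079 to 2131 in sphere libraries. EPCAM, KRT8 and KRT18 fell, the last not after median-of-ratios scaling, and CDH1 and TP63 rose. The fibroblast and leukocyte marker sums did not exceed 17.2 and 1.92 TPM in any library, and the endothelial sum was 10.95 to 11.9 TPM in parental libraries, nearly all of it CDH5, and 0.26 to 0.30 TPM in sphere libraries. COL3A1, PTPRC and CD3E were listed at 0 in each parental library. The part of these markers in the differences below was not tested, and in bulk RNA fewer cells of a type and less RNA per cell cannot be told apart.

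To show the sequence in front of proteasome genes, both those that fell and those that did not, RefSeq promoter entries (GRCh38.p14, 250 bases before to 50 bases after the start) were matched by gene ID for 37 of the 42 members. PSMA7, PSMB1, PSMB6, PSMB7 and PSMD4 had no entry. The build behind the deposited values is unclear, so the coordinates here belong to the RefSeq entries alone. The motif TGACNNNGC, the core of the antioxidant response element that NRF1 (encoded by NFE2L1) and NRF2 bind, was searched on both strands. It was found for 12 of 37 members (32.4%), against 16.1% of all 27305 genes with an entry and 19.4% of the 10092 of them that were tested. The stretches that hold it before the start of 10 members are shown in the direction of the gene, with the 9 motif bases in capitals.
PSMA4 (chr15:78540650-78540678, plus strand): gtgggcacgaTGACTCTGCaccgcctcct
PSMB3 (chr17:38752627-38752655, plus strand): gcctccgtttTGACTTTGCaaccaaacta
PSMC5 (chr17:63827654-63827682, plus strand): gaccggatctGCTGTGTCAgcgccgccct
PSMD3 (chr17:39980760-39980788, plus strand): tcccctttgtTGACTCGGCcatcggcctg
PSMD12 (chr17:67366724-67366752, minus strand): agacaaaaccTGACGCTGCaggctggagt
PSMD5 (chr9:120843038-120843066, minus strand): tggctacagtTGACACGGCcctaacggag
PSMD9 (chr12:121888678-121888706, plus strand): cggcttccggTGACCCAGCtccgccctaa
PSME1 (chr14:24136098-24136126, plus strand): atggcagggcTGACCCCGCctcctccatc
PSME2 (chr14:24146767-24146795, minus strand): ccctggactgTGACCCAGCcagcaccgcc
PSME4 (chr2:53971009-53971037, minus strand): cccggcggctGCAGCGTCAccagcagagc
In PSMC5 and PSME4 the motif reads on the opposite strand. PSMC4 and PSMD1 held it after their start, and PSMD3 and PSMD9 each held it again elsewhere in the window. A match is a description of letters, not a bound site.

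The other motifs searched on both strands were the CCAAT box, found for 19 of 37 members (51.4%) against 43.3% of the genes tested, and the ETS motif CCGGAAGT, found for 10 members (27.0%) against 10.2%. TATAAA was found for 4 members (10.8%) against 8.89%. The 250 bases before the start of PSMC3, the subunit with the largest fall, hold none of these motifs but 1 CCAAT box, in capitals.
PSMC3 (chr11:47426440-47426689, minus strand): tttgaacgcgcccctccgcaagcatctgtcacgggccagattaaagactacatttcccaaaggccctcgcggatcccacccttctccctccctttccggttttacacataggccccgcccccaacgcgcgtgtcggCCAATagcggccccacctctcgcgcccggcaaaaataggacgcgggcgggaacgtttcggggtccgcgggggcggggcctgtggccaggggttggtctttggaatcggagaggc

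Proteasome subunit transcripts were lower in sphere than in parental libraries, with the summed constitutive core at 52.4% and the summed constitutive regulatory particle at 46.4% of the parental mean. All 31 constitutive subunits among the members (7 alpha, 7 beta, 6 ATPases, 3 base scaffold and 8 lid subunits) fell. Their sphere mean was 34.2 to 80.1% of the parental mean, with a median of 48.3%. Together they made up 1.34, 1.36 and 1.37% of all TPM in the parental libraries. In the sphere libraries the share was 0.678, 0.683 and 0.675%. The members outside the constitutive subunits did not all follow: the inducible subunit PSMB10, the inhibitor PSMF1 and the chaperones PSMD5 and PSMD10 did not pass the test. Constitutive subunits with other symbols, SEM1 and ADRM1, are not in these sums and counts. SEM1 fell and ADRM1 did not pass, with values given below.

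All 42 members passed the filter of a mean of at least 1 TPM, the lowest mean being 26.8 TPM. In limma (log2(TPM + 1), sphere minus parental, two-sided, Benjamini-Hochberg over 12261 genes, threshold 0.05), 38 of 42 members passed, all 38 of them lower. For comparison, 83.4% of all genes tested passed, 48.2% lower and 35.1% higher. Of the core genes 14 of 15 fell, and of the cap genes 24 of 27. A fall of at least 2-fold on this scale was found for 20 of 42 members, against 14.7% of all genes tested. After median-of-ratios scaling it was found for 12 of 42 members. Over all 12261 genes tested the number was 1802 with TPM alone and 1428 after that scaling. In 38 of 42 members the groups did not overlap, against 84.6% of all genes tested. In all 38 every sphere library lay below every parental library, which held for 48.9% of all genes tested.

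The median difference of the members was -0.93 on the log2(TPM + 1) scale, where the median of all genes tested was -0.13. It was -0.91 for the core and -1.03 for the cap genes. Scaling the libraries by median of ratios in place of TPM alone moved the median of all genes by 0.14. The member median relative to all genes was -0.79 with TPM alone and -0.78 after that scaling. All 31 constitutive subunits still fell after it, while 35 of 42 members fell (41.0% of all genes tested) and 2 rose (42.1%).

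**Figure D1:**
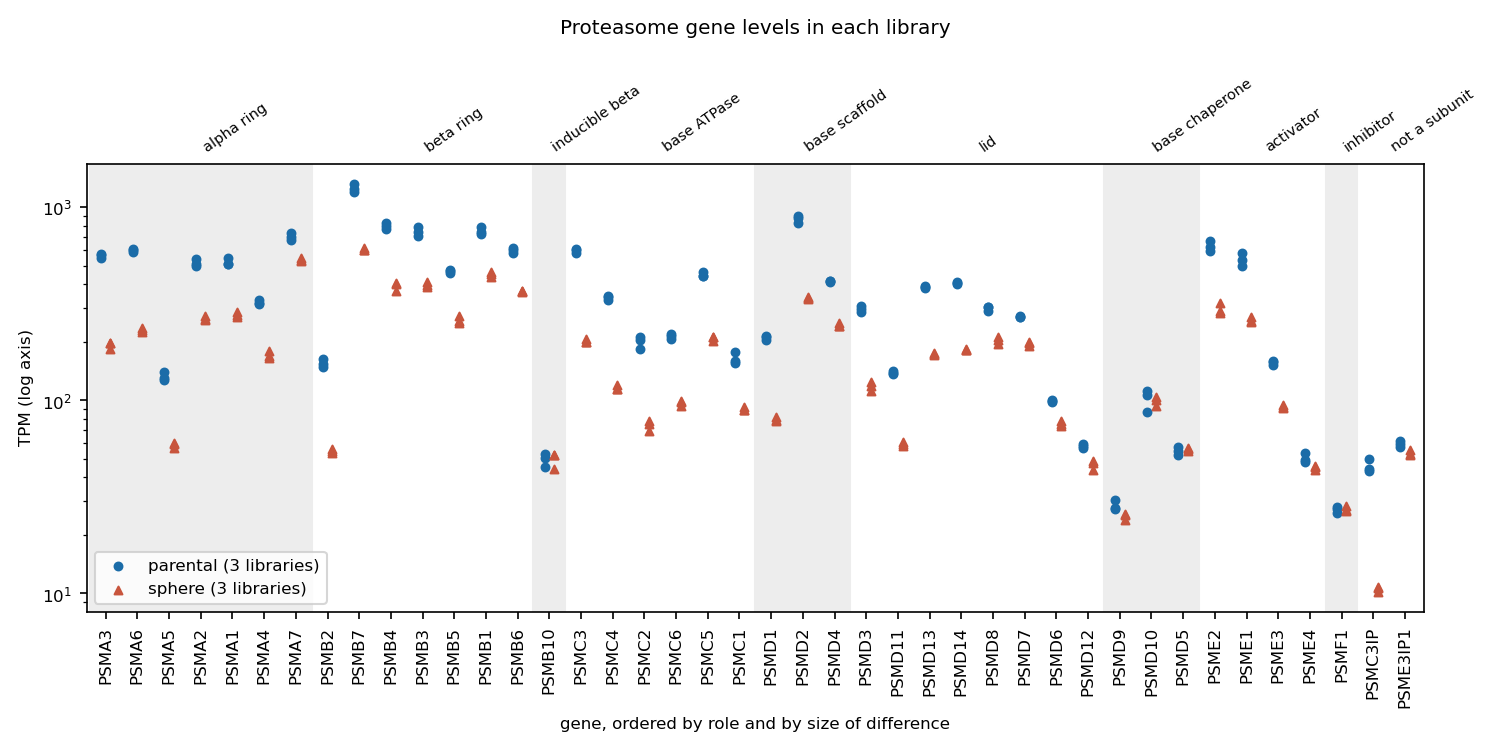
TPM on a log axis of the 42 members in each of the 3 parental (circles) and 3 sphere libraries (triangles), grouped by role. For the 31 constitutive subunits every sphere library lies below every parental library, while the libraries overlap for PSMB10, PSMD5, PSMD10 and PSMF1.

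In the alpha ring, PSMA3 had the largest fall and PSMA7 the smallest. PSMA3, whose tail is known to bind substrate proteins such as CDKN1A, was at 550, 567 and 571 TPM in the parental libraries and at 199, 199 and 185 TPM in the sphere libraries. Parental and sphere values lay far apart, and the difference was -1.53 ± 0.04 (SE, limma adjusted p = 4.1e-10). PSMA7 was at 706, 681 and 736 TPM in parental and 532, 545 and 531 TPM in sphere libraries. Its groups were also separate, but the fall of 0.40 on the log2 scale (SE 0.04, limma adjusted p = 3.9e-06) was the smallest of the ring, and PSMA7 was the most abundant alpha transcript in both groups. The 95% intervals of PSMA3 (-1.62 to -1.44) and PSMA7 (-0.48 to -0.32) lay apart. The other 5 alpha genes kept 38.9 to 53.6% of their parental mean, with PSMA6 at the low end and PSMA4 at the high end.

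The beta ring holds the catalytic subunits PSMB5, PSMB6 and PSMB7, which cut after hydrophobic, acidic and basic residues, respectively. PSMB5, the main target of the inhibitor bortezomib, was at 474, 469 and 458 TPM in parental and at 257, 276 and 251 TPM in sphere libraries. PSMB6 read 601, 579 and 618 TPM in parental and 363, 369 and 371 TPM in sphere libraries. PSMB7, the most abundant member of all 42 in both groups, had 1251, 1198 and 1322 TPM in parental and 618, 603 and 601 TPM in sphere libraries. None of the 3 genes overlapped between groups. Their differences were -0.84 ± 0.04, -0.70 ± 0.04 and -1.05 ± 0.04 (SE), with limma adjusted p of 3.6e-08, 3.8e-08 and 6.4e-09.

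Of the beta subunits without a catalytic site, PSMB2 had the largest fall. Its levels were 154, 149 and 164 TPM in parental and 53.6, 56.2 and 54.6 TPM in sphere libraries, with no overlap (-1.49 ± 0.05 (SE), limma adjusted p = 1.4e-09). PSMB2 was the least abundant constitutive beta transcript in both groups, while PSMB1, PSMB3 and PSMB4 kept 59.8, 53.3 and 48.9% of their parental mean.

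PSMB10, which replaces PSMB7 in the immunoproteasome and is induced by interferon gamma, did not follow. It was at 52.5, 50.2 and 45.3 TPM in parental and at 52.2, 44.3 and 52.3 TPM in sphere libraries. The groups overlapped, and the difference of 0.01 (95% interval -0.17 to 0.18, limma adjusted p = 0.936) is within the spread of the libraries. After median-of-ratios scaling it was 0.16 (limma adjusted p = 0.061). Set against PSMB7 in the same library, which no scaling changes, PSMB10 was at 4.20, 4.19 and 3.42% of PSMB7 in parental and 8.44, 7.34 and 8.70% in sphere libraries. These shares did not overlap, and the two-sided exact permutation test gave p = 0.1, the smallest that 3 against 3 libraries allow. As PSMB7 fell without overlap and PSMB10 hardly differed, the separation restates these values and is no separate result on PSMB10.

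The ATPases of the base (PSMC) fell the most as a group by summed level. The 6 together came to 1901, 1974 and 2019 TPM in parental and 798, 779 and 797 TPM in sphere libraries, or 40.3% of the parental mean. By the median difference over genes the base scaffold fell more (-1.36) than the ATPases (-1.28). All 6 fell, from PSMC1 (-0.86) to PSMC3 (-1.54). PSMC3 was at 577, 598 and 612 TPM in parental and 209, 201 and 200 TPM in sphere libraries, with no overlap (limma adjusted p = 2.4e-10). PSMC4 (-1.54) and PSMC2 (-1.43) had 95% intervals that overlapped that of PSMC3 (-1.63 to -1.46). PSMC1 is the member with the most pseudogenes, 13 named in GENCODE 29, so its share of reads is uncertain.

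In the symbol group PSMC the largest fall was that of PSMC3IP, which is no ATPase. It was at 44.3, 49.9 and 42.9 TPM in parental and 10.2, 10.7 and 10.8 TPM in sphere libraries (-2.01 ± 0.07 (SE), limma adjusted p = 1.9e-09). PSME3IP1, the other symbol that is no subunit, was at 57.5, 59.2 and 61.4 TPM in parental and 55.1, 52.1 and 53 TPM in sphere libraries. That small difference of -0.15 (limma adjusted p = 0.011) was 0.01 after median-of-ratios scaling (limma adjusted p = 0.908). Without both genes the proteasome counts become 36 of 40 lower.

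The base scaffold subunits PSMD1 and PSMD2, which dock ubiquitin receptors and shuttle factors, fell alongside the ATPases. PSMD1 was at 206, 216 and 214 TPM in parental and 81.8, 78.3 and 79.1 TPM in sphere libraries, and had the largest fall among PSMD genes (-1.40 ± 0.04 (SE), limma adjusted p = 5.6e-10). Its groups were far apart. PSMD2 kept 39.0% and the ubiquitin receptor PSMD4 59.4% of the parental mean.

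The 8 lid genes fell by unlike amounts. PSMD14, the metalloprotease that cuts ubiquitin chains off substrates, was at 400, 407 and 413 TPM in parental and at 183, 183 and 184 TPM in sphere libraries. Its libraries hardly varied within a group (-1.14 ± 0.03 (SE), limma adjusted p = 7.1e-10). PSMD3, PSMD11 and PSMD13 kept 39.7, 42.5 and 44.9% of their parental mean, close to PSMD14 at 45.1%. The remaining 4 kept more, with PSMD8 at 68.3%, PSMD7, the structural partner of PSMD14, at 72.2%, PSMD6 at 76.6% and PSMD12 at 80.1%. PSMD12 had the smallest difference of the 31 constitutive subunits among the members (-0.31 ± 0.05 (SE), limma adjusted p = 2.2e-04). It was at -0.16 after median-of-ratios scaling (limma adjusted p = 0.011).

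**Figure D2:**
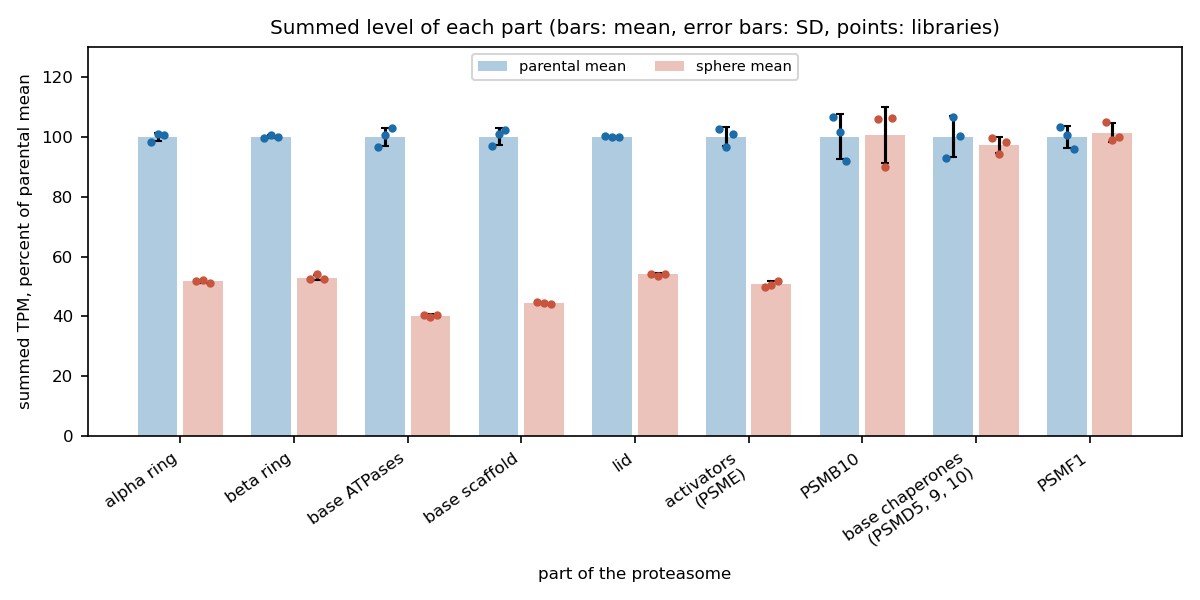
Summed TPM of each part of the proteasome in percent of its parental mean, with bars for group means, error bars for SD and points for the 3 libraries of each group. The rings, the base, the lid and the activators lie at 40.3 to 54.0% in sphere libraries, while PSMB10, the base chaperones and PSMF1 lie at 97.4 to 101%.

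The activators fell to unlike degrees. PSME1, which with PSME2 forms the interferon-inducible activator ring, was at 531, 498 and 580 TPM in parental and 257, 272 and 255 TPM in sphere libraries (-1.03 ± 0.06 (SE), limma adjusted p = 6.1e-08). PSME2 was at 669, 621 and 597 TPM in parental and 290, 283 and 319 TPM in sphere libraries (-1.08 ± 0.06 (SE), limma adjusted p = 4.5e-08). Neither overlapped between groups. The ratio of PSME1 to PSME2 in a library was 0.794, 0.802 and 0.972 in parental and 0.887, 0.961 and 0.800 in sphere libraries, with overlap (exact permutation test, two-sided, p = 0.9).

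PSME3, the nuclear activator that acts largely without ubiquitin, was at 159, 152 and 160 TPM in parental and 94.2, 91.2 and 92.6 TPM in sphere libraries (-0.75 ± 0.04 (SE), limma adjusted p = 3.8e-08). PSME4, a large single-chain activator linked to histone turnover, was at 48.2, 53.2 and 49.4 TPM in parental and 43.7, 45.2 and 45.7 TPM in sphere libraries. Its groups did not overlap but lay close together. The fall of 0.16 on the log2 scale (SE 0.05, limma adjusted p = 0.013) was lost after median-of-ratios scaling (-0.01, adjusted p = 0.918) and without parental replicate 2 (-0.12, adjusted p = 0.0508). PSME4 came to 30.4, 35.1 and 31.0% of PSME3 in parental and to 46.4, 49.6 and 49.4% in sphere libraries. These shares did not overlap (exact permutation test, two-sided, p = 0.1, the smallest possible). As PSME3 fell without overlap and PSME4 differed little, this restates the values above.

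PSMF1, known as an inhibitor of the isolated core particle, was at 28.0, 27.3 and 26 TPM in parental and 28.5, 26.8 and 27.1 TPM in sphere libraries. The groups overlapped and the difference was 0.02 (95% interval -0.10 to 0.13, limma adjusted p = 0.743). After median-of-ratios scaling PSMF1 rose (0.17, limma adjusted p = 0.0095). In percent of the summed constitutive core in the same library it was at 0.347, 0.333 and 0.319 in parental and 0.670, 0.619 and 0.641 in sphere libraries, with no overlap. The core sum itself fell without overlap, so this share is no separate result on PSMF1.

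The 3 base chaperones, PSMD5, PSMD9 and PSMD10, bind the ATPases during assembly and leave before the particle is complete. PSMD5 was at 54.8, 57.3 and 52.0 TPM in parental and 55.0, 56.8 and 56.1 TPM in sphere libraries (0.03, 95% interval -0.07 to 0.14, limma adjusted p = 0.514). PSMD10, also known as gankyrin, was at 86.9, 113 and 107 TPM in parental and 104, 94.0 and 100.1 TPM in sphere libraries (-0.03, 95% interval -0.22 to 0.16, limma adjusted p = 0.752). Both overlapped between groups. PSMD9 was at 30.6, 27.7 and 27.4 TPM in parental and 25.4, 24.0 and 25.8 TPM in sphere libraries, and fell by 0.18 on the log2 scale (limma adjusted p = 0.016).

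The calls of these chaperones depended on the setting. After median-of-ratios scaling PSMD5 rose (0.19, limma adjusted p = 0.0026) and the call of PSMD9 was lost (-0.03, limma adjusted p = 0.636). PSMD9 also missed the threshold without parental replicate 1 (limma adjusted p = 0.062) and without sphere replicate 2 (limma adjusted p = 0.064). PSMD10 fell without parental replicate 1, whose 86.9 TPM was the lowest of the 6 values (-0.14, limma adjusted p = 0.038).

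**Figure D3:**
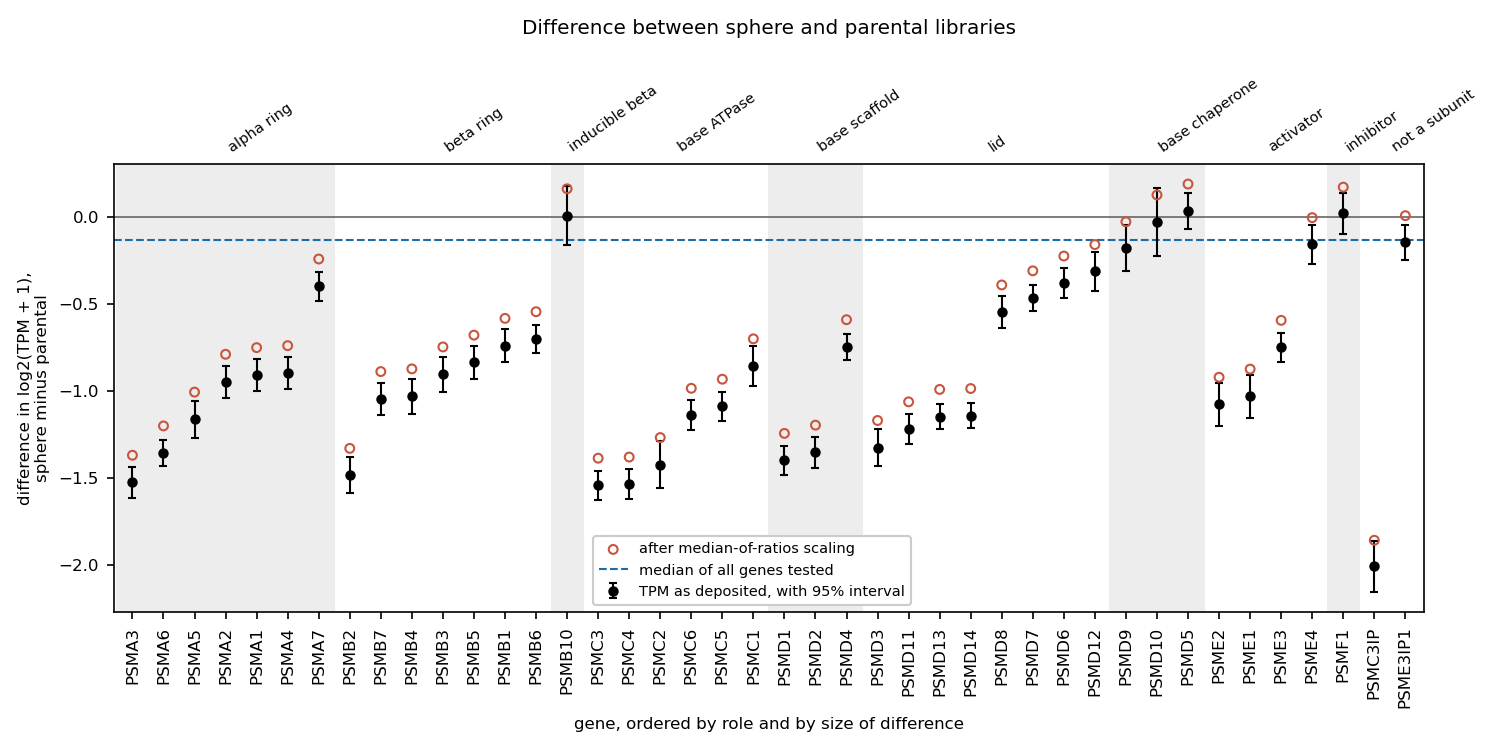
Difference in log2(TPM + 1), sphere minus parental, of the 42 members with 95% intervals (black) and after median-of-ratios scaling (open circles), beside the median of all genes tested (-0.13, dashed). The constitutive subunits run from -1.54 to -0.31 and stay below 0 under both scalings, while PSMB10, PSMF1, PSMD5 and PSMD10 have intervals that include 0.

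Subunits of the complex differed widely in transcript level. Among the 31 constitutive subunits the parental means ran from 58.1 TPM (PSMD12) to 1257 TPM (PSMB7), and the sphere means from 46.6 to 607 TPM. The order was largely kept, with Pearson r = 0.94 and Spearman rho = 0.93 between the log2 levels of both groups across these 31 genes, which share their libraries. The size of the fall had no relation to the parental level (Spearman rho = -0.01 across the same genes). The spread over subunits (SD of log2 TPM within a library) was larger in sphere libraries in the alpha ring (0.802 to 0.839 in parental, 0.960 to 0.976 in sphere) and in the beta ring (0.933 to 0.976 and 1.14 to 1.15). It was smaller in sphere libraries among the ATPases (0.719 to 0.749 and 0.620 to 0.635) and in the lid (1.01 to 1.03 and 0.833 to 0.875).

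The balance of core and cap moved little beside the overall fall. The mean TPM per constitutive core subunit, divided by that per constitutive regulatory particle subunit, was 1.84, 1.83 and 1.80 in parental and 2.04, 2.11 and 2.04 in sphere libraries. Each sphere value lay above each parental value.

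Members lie on 15 chromosomes, and 39 of 42 had a difference below the median of the up to 20 nearest tested genes around them. The like share was not taken over all genes tested, and a high count is likely wherever most members fall. Those neighbourhood medians ran from -0.54 to 0.62. They were highest for PSMC1 on chromosome 14 (0.62) and PSMA7 on chromosome 20 (0.60), where the members themselves fell by 0.86 and 0.40. The part of the neighbourhood in a member's value was not tested. By RefSeq positions, 18 of 42 members overlap another gene. By GENCODE 29, 12 members have named pseudogenes, and how strand and multiply mapped reads were treated is not given, which leaves those values uncertain.

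Partner genes of the proteasome did not move as one. In a list of 12 other subunits, assembly chaperones and bound factors 3 rose and 4 fell, with a median of 0.01 beside -0.13 for all genes tested. After median-of-ratios scaling 7 rose and 4 fell. Over all genes tested 35.1% rose and 48.2% fell with TPM alone, and 42.1% rose and 41.0% fell after that scaling. SEM1, a small lid subunit, was at 1245, 1190 and 1341 TPM in parental and 446, 465 and 449 TPM in sphere libraries (-1.47, limma adjusted p = 1.5e-09), or 36.0% of the parental mean. ADRM1, a ubiquitin receptor of the base, was at 318, 303 and 295 TPM in parental and 324, 287 and 305 TPM in sphere libraries (limma adjusted p = 0.968), and rose after median-of-ratios scaling (0.15, limma adjusted p = 0.015). Its groups overlapped, unlike those of the receptor PSMD4.

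Among the chaperones of that list, PSMG1, PSMG2 and PSMG3, which help to build the alpha ring, kept 97.9, 101 and 106% of their parental mean and did not pass. After median-of-ratios scaling PSMG2 and PSMG3 rose. PSMG4 and the core maturation factor POMP fell by 0.56 and 0.93 on the log2 scale (limma adjusted p = 6.1e-04 and 1.6e-07). The largest rise was that of PAAF1, a chaperone of the base, from 26.8 ± 0.7 to 38.0 ± 2.5 TPM (SD, n = 3 each), and the largest fall that of TXNL1, a thioredoxin-like protein bound to the regulatory particle, from 97.4 ± 5.2 to 29.2 ± 1.8 TPM (limma adjusted p = 2.6e-05 and 2.5e-09). Of all 9 assembly chaperones, PSMD5, PSMD9 and PSMD10 included, 1 rose and 3 fell with TPM alone, but 4 rose and 2 fell after median-of-ratios scaling. That is 11.1% higher and 33.3% lower, or 44.4 and 22.2%, in a group formed after the values were seen.

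Of 19 genes that supply, carry or remove ubiquitin, 14 fell, 4 rose and 1 did not pass (median -0.41), or 12 and 5 after median-of-ratios scaling. The share that fell was 73.7% (48.2% of all genes tested), or 63.2% after scaling (41.0%). The polyubiquitin gene UBB fell from 2705 ± 97.5 to 953 ± 23.3 TPM (SD, n = 3 each), the largest fall of the list (-1.50, limma adjusted p = 3.6e-10). The shuttle factor UBQLN2 rose from 12.8 ± 0.8 to 33.8 ± 1.1 TPM (1.34, limma adjusted p = 1.7e-08). The deubiquitinases that dock on the regulatory particle fell, USP14 from 114 ± 3.6 to 64.4 ± 3.0 TPM and UCHL5 from 73.1 ± 1.8 to 42.1 ± 3.1 TPM. So did the segregase VCP, from 505 ± 15.3 to 258 ± 8.6 TPM. The limma adjusted p of these 3 was at most 5.4e-07.

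Among 11 regulators of proteasome gene transcription 4 rose and 5 fell (median -0.08), or 5 and 2 after median-of-ratios scaling. With TPM alone these shares, 36.4% higher and 45.5% lower, lie near those of all genes tested (35.1 and 48.2%). After that scaling 45.5% were higher and 18.2% lower, against 42.1 and 41.0% of all genes tested, so the lower share was then smaller. NFE2L1 encodes NRF1, the factor known to raise proteasome genes when proteasome activity is low. It was at 111, 109 and 114 TPM in parental and 105, 102 and 103 TPM in sphere libraries. The fall of 0.10 on the log2 scale (limma adjusted p = 0.027) turned to 0.05 after median-of-ratios scaling (limma adjusted p = 0.263). It also missed the threshold without parental replicate 1 or 3 or sphere replicate 2 or 3 (limma adjusted p up to 0.082) and with no variance trend. NFE2L2, which encodes NRF2, rose from 80.7 ± 2.4 to 121 ± 1.0 TPM (0.58, limma adjusted p = 3.0e-07), and rose after median-of-ratios scaling too (0.73). The related NFE2L3 had the largest fall, from 54.0 ± 2.7 to 19.9 ± 0.2 TPM, and the small MAF partner MAFF the largest rise, from 39.9 ± 2.4 to 77.7 ± 0.9 TPM (SD, n = 3 each, limma adjusted p = 4.2e-09 and 5.6e-08). Constitutive subunits with and without TGACNNNGC in the RefSeq promoter window had medians of -1.09 (7 genes) and -1.14 (19 genes).

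In the interferon gamma list, which bears on PSMB10, PSME1 and PSME2, 5 of 12 genes rose and 7 fell (median -0.19), or 5 and 5 after median-of-ratios scaling. The shares were 41.7% higher and 58.3% lower, near those of all genes tested (35.1 and 48.2%), and 41.7% each after scaling (42.1 and 41.0%). The receptor chain IFNGR2 rose from 65.2 ± 6.1 to 234 ± 10.6 TPM, while NLRC5, a transactivator of antigen presentation genes, fell from 17.8 ± 1.0 to 3.40 ± 0.56 TPM (SD, n = 3 each, limma adjusted p = 4.1e-09 and 2.1e-08).

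Other large complexes give a measure of how usual such a fall was, and were chosen after the values were seen. Of 8 subunits of the CCT chaperonin, which folds actin and tubulin, all 8 fell, with a median of -1.04, close to that of the constitutive proteasome subunits (-1.05). Of 78 mitochondrial ribosomal proteins 62 fell and 3 rose (median -0.50), and of 83 cytosolic ribosomal proteins 44 fell and 28 rose (median -0.17). After median-of-ratios scaling 53 mitochondrial ones fell and 10 rose, while of the cytosolic ones 34 fell and 36 rose (median -0.02). The cytosolic shares, 53.0% lower and 33.7% higher with TPM alone, lie near those of all genes tested (48.2 and 35.1%), and 79.5% of the mitochondrial ones fell. All 8 CCT subunits fell after scaling too. No test of the difference between these groups was made.

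**Figure D4:**
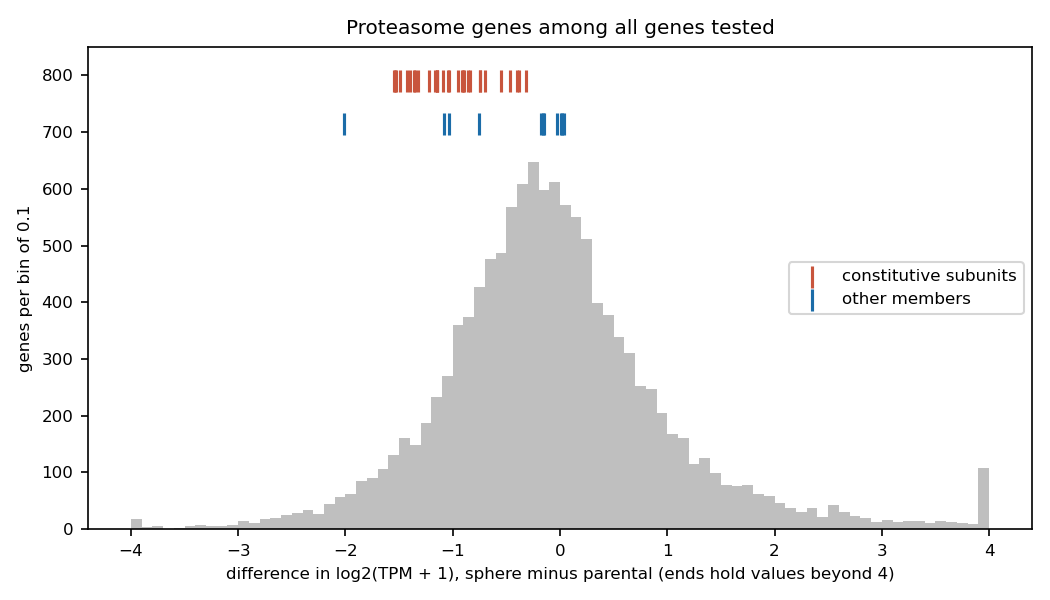
Histogram of the difference in log2(TPM + 1), sphere minus parental, of the 12261 genes tested, with marks for the 31 constitutive proteasome subunits (upper row) and the other 11 members (lower row). The constitutive subunits all lie below the median of the genes tested (-0.13), from -1.54 to -0.31.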

How the data were processed

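Total RNA of CAL-27 cells was sequenced as single-end reads of 50 bases, per the labels' protocols. The authors deposited TPM for 17110 genes with 2 decimals, summing to about 1000000 in each library, per the file headers and values. Per the submitters' processing notes, HISAT and Bowtie2 were used, with no version given, and the build was GRCm38.p6, a mouse build, although the gene IDs are human Entrez IDs. The build is therefore unclear, and no source used here gives the counting tool, annotation or RNA selection. The columns headed Control were taken as the parental group, the remaining one of 2 groups.

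Genes with a mean of at least 1 TPM (12261) were tested on log2(TPM + 1), which understates changes of low genes, with limma 3.58.1 in R 4.3.3 (lmFit, eBayes with a trend, 4 residual degrees of freedom), and all other steps used Python 3.11.15. The fit was checked on simulated data. Members, roles and lists were chosen with earlier results of these data known. Values in every library are given for catalytic subunits, PSMD14, activators, the inhibitor, the largest rise and fall of each PSMA to PSMD group and members that did not pass, and for a few others named after their values were seen. Medians of members are descriptions without a test. Alternatives were median-of-ratios scaling of the libraries, the replicate number as a block, 1 library left out at a time, a pseudocount of 0.1, a filter of 5 TPM or none, and eBayes without the trend or with a robust prior. Protein sequences are not used here. A single marker of the leukocyte list is not reported here and was left out of the sum of that list.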

Additional observations from a re-analysis of the deposited data

How the results depend on the processing

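Under 13 alternatives 37 or 38 of the 42 members passed, with 35 to 38 lower, and all 14 core genes that fell did so each time. With median-of-ratios scaling 2 members rose, both in the cap group (none as reported), and the member median was -0.77 in place of -0.93. With 1 library left out it was -0.95 to -0.91, and 23 or 24 cap genes fell. The same number marks no shared deviation (r = 0.02, -0.02 and -0.05 for same-numbered libraries). With the replicate number as a block 38 members fell, as without it. Of 806 values of single genes, 773 kept direction and side of the threshold, 10 lost the call, 5 gained it and 18 changed sign. The sign changes were of small differences. With median-of-ratios scaling they were ADRM1 (0.15), NFE2L1 (0.051), PSMD10 (0.13), PSMG1 (0.13) and PSME3IP1 (0.0060). With 1 library left out the range was -0.052 to 0.085 for PSMB10, -0.14 to 0.045 for PSMD10, -0.0011 to 0.067 for PSMD5, -0.046 to 0.041 for ADRM1, -0.068 to 0.038 for PSMG1, -0.014 to 0.050 for PSMG2 and -0.0089 to 0.041 for PSMF1. Causes of these changes were not tested. Depth is unknown, so only the spread of 3 libraries limits the differences that can be seen.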
